A study of Homo sapiens with 42 samples.

Results

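HIF-1α and HIF-2α are transcription factors that cells stabilize when oxygen is short, and each pairs with HIF-1β to bind DNA. Each α subunit has an N-terminal structured domain, made of the DNA-binding bHLH region and the PAS domains that contact HIF-1β, followed by a long intrinsically disordered region (IDR) that carries the oxygen-dependent degradation and activation segments. Both proteins recognize the same short hypoxia response element, built around RCGTG, yet HIF-1α is known for driving genes of anaerobic glycolysis and mitophagy and HIF-2α for other programmes, among them growth and matrix genes in clear cell renal carcinoma.

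The comparison described here kept the IDR and changed the structured domain: 3 RNA-seq libraries of 786-O cells that carried the chimera HIF-2α/1α were set against 3 libraries of 786-O cells that carried HIF-1α. These 6 libraries, chosen by their labels, came from the second of 2 batches and were part of 42 in all. The other lines of that batch, with 3 libraries each, were WT (786-O with no transgene), HIF-2α, and the opposite chimera HIF-1α/2α. 786-O is a clear cell renal carcinoma line that lacks functional VHL, so HIF-α is not degraded at normal oxygen, and that has lost functional HIF-1α but keeps its own HIF-2α and HIF-1β. All lines, WT and controls included, therefore held endogenous HIF-2α. Each transgene had been inserted by PiggyBac transposition under the weak L30 promoter with V5 and HaloTag sequences at the N-terminus, and cells had been selected with puromycin. With 1 line for each construct, an effect of the exchanged domain and a difference between the lines that arose on their derivation cannot be told apart.

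HIF-2α/1α joined residues 1 to 365 of HIF-2α to residues 364 to 826 of HIF-1α. The coding bases on either side of the join are shown because they mark which part of each gene entered the chimera. They were read from the GENCODE v44 transcripts on GRCh38, not from the construct. Capitals mark the codons kept in HIF-2α/1α, and the strand is + for both genes.
EPAS1, codons 356 to 370 of EPAS1-201: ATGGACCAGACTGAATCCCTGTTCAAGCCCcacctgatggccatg
HIF1A, codons 359 to 373 of HIF1A-202: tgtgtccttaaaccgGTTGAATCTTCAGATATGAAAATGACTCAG
Codon 365 of EPAS1, the gene of HIF-2α, lies at chr2:46376597-46376599 in exon 9 of 16 coding exons, and codon 364 of HIF1A at chr14:61736950-61736952 in exon 9 of 15. Reads from a transgene were counted on these genes together with those of the endogenous copies. HIF1A had a normalized count (reads scaled to a common library size) of 261, 306 and 313 in the WT libraries, 13714, 13008 and 12761 in the HIF-1α libraries and 9706, 9556 and 9613 in the HIF-2α/1α libraries, and EPAS1 had 11955, 12369.5 and 13537, 17435, 16476 and 15169 and 21983, 20791 and 19460.4 in the same order. Both transgene lines thus stood above WT for HIF1A, and HIF-2α/1α also stood above HIF-1α for EPAS1. Spread over the codons that each construct carries, the count above WT was 15.6 ± 0.599 (SD, n = 3) per codon for HIF1A in the HIF-1α line, 20.2 ± 0.163 for HIF1A in the HIF-2α/1α line and 22.3 ± 3.46 for EPAS1 in that line. Per codon, the HIF1A part of the chimera was thus at 1.29 times the HIF-1α transgene. The HIF-1α line, which carries no EPAS1 transgene, itself stood above WT for EPAS1. The EPAS1 part came to 1.43 times the HIF-1α transgene when counted above WT, and to 0.771 times (12.0 ± 3.46 per codon) when counted above the HIF-1α line. The part of transgene level in the differences below was not tested. Protein levels are not analysed here.

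The 6 libraries held 76366799 to 100851615 counted reads. Replicates correlated between 0.987 and 0.992 (log2 normalized counts) within the lines of the batch, and the 9 pairs of a HIF-1α with a HIF-2α/1α library between 0.984 and 0.989. Kidney lineage markers summed to 3445 to 3505 CPM (counts scaled to the library's total) in HIF-1α and 3459 to 3608 in HIF-2α/1α. VIM led this sum, at a mean normalized count of 227052 in HIF-1α and 244455 in HIF-2α/1α, against 23184.8 and 22196.5 for PAX8. HNF4A had few reads (4.18 and 5.43), LRP2 was at or under the floor of 3 reads a library, and CA9 was called lower. Blood cell markers summed to 0.171 to 0.310 CPM in HIF-1α and 0.340 to 0.595 in HIF-2α/1α. Of these 8 markers, 5 were at or under the floor, and HBB, described below, was called higher. Endothelial markers summed to 1.75 to 2.02 CPM in HIF-1α and 0.720 to 1.08 in HIF-2α/1α, with TIE1 called lower, and CDH5 was at or under the floor. Fibroblast markers summed to 11.7 to 15.0 and 13.6 to 16.7 CPM, a sum led by COL1A1. None of these 7 was called and none had a log2 change below 0 (median 1.97), though several had few reads. Library 3 of HIF-2α/1α stood apart: small structural RNAs took 0.0369% of its counts against 0.00442% to 0.0115% in the other 14 libraries of the batch, and replication-dependent histone genes took 0.00757% against at most 0.00514%. A second pattern split libraries across lines. For 23 genes no read was counted in the 3 WT libraries, the 3 HIF-1α libraries and HIF-1α/2α library 1, while each of the other 8 libraries, all 3 of HIF-2α/1α included, had at least 1. Whether either pattern comes from the preparation of the libraries was not tested.

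Expression differences between HIF-2α/1α and HIF-1α were few and mostly toward lower levels in the chimera. With a call set at an adjusted p of at most 0.01 (edgeR quasi-likelihood test, Benjamini-Hochberg) and a change of at least 2-fold, 134 of 28724 genes were lower in HIF-2α/1α than in HIF-1α (0.467%) and 22 were higher (0.0766%). Of the 22 higher genes, 11 were small structural RNAs and histone genes highest in HIF-2α/1α library 3 and 8 were genes of few reads in the HIF-1α libraries, described below, which left 3. Of the 134 lower genes, 122 coded for proteins, and their median log2 change was -1.48 (range -8.80 to -1.0) against -0.0047 over all genes. For all 134 the highest HIF-2α/1α library lay below the lowest HIF-1α library, which held for 10.4% of all genes. That median and this lack of overlap follow in large part from the choice of the 134 on the same libraries. Without HIF-2α/1α library 3 there were 116 lower genes, 104 of them among the 134, and 10 higher genes, 9 of them among the 22. The figure of all genes shows how one-sided the change was among well-counted genes.

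**Figure D1:**
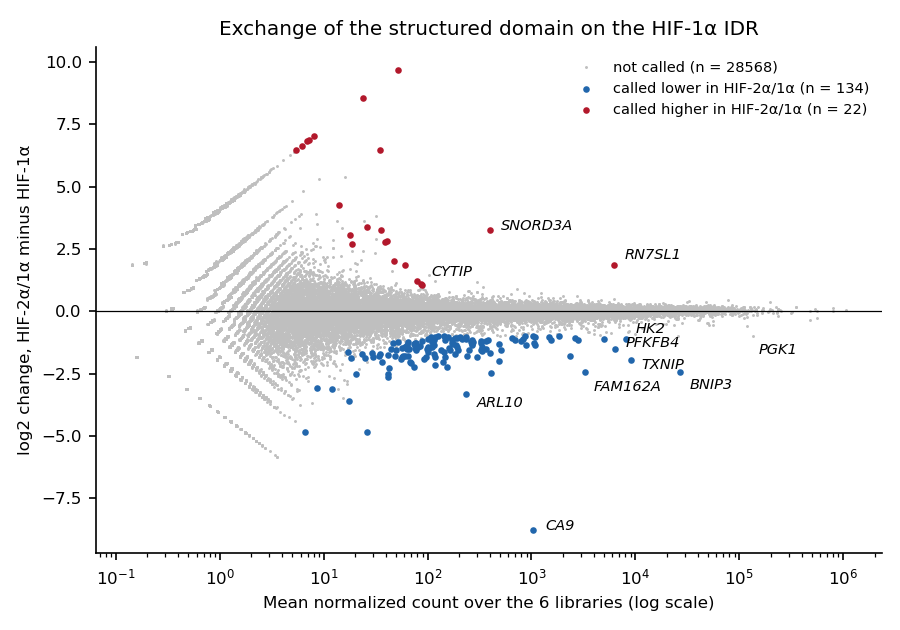
Log2 change between HIF-2α/1α and HIF-1α (y axis) against the mean normalized count over the 6 libraries (x axis, log scale), 1 point a gene. The 134 genes called lower (blue) run from CA9 at -8.80 to -1.0 and reach a mean of 26668 (BNIP3), short of the highest counts. The 22 called higher (red) lie mostly under a mean of 100.

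Most lower genes were genes that HIF-1α raised. In the second batch 124 of the 134 were higher in HIF-1α than in WT, where 3.9% of all genes were; this contrast shares the HIF-1α libraries with the exchange. In the first batch, whose 3 HIF-1α and 3 WT libraries are separate from it, 111 of the 134 were higher in HIF-1α (3.27% of 23410 genes were) and 131 had a log2 change above 0. The labels do not say whether the HIF-1α line was derived anew for that batch, so domain and line are not separated here either. HIF-2α/1α retained part of the response to HIF-1α: 75 of the 134 genes were still called above WT (2.98% of all genes were), 57 were not called and 2, DOC2A and LCP1, were below WT (0.508% of all genes were). The median log2 change against WT over the 134 was 3.32 in HIF-1α, 1.73 in HIF-2α/1α, 2.09 in HIF-2α and 2.89 in HIF-1α/2α. That HIF-1α lies above HIF-2α/1α here follows from the choice of the 134 on the same libraries. In HIF-2α/1α 31 of the 134 lay within 0.5 of WT on the log2 scale.

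CA9, carbonic anhydrase IX, a membrane enzyme that regulates pH outside the cell and a classical HIF-1α target, fell the most. The gene (ENSG00000107159.13, chr9:35673928-35681159 on GRCh38, + strand) had a normalized count of 2095, 2112 and 1938 in the HIF-1α libraries and 5.91, 3.45 and 4.44 in the HIF-2α/1α libraries, and no WT library had a read. The log2 change was -8.80 ± 0.20 (SE from the test statistic, as for every log2 change here) with an adjusted p of 1.99e-31. This SE may understate the error of the change, because the HIF-2α/1α counts were so low. The chimera's libraries thus held only a few reads of a gene that the HIF-1α libraries expressed strongly, and both proteins end in the same IDR. CA9 was at 9.91, 5.77 and 7.04 in the HIF-2α libraries and 151, 133 and 123 in the HIF-1α/2α libraries, so on the HIF-2α IDR the HIF-1α structured domain also went with the higher count.

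BNIP3 (ENSG00000176171.11, chr10:131967684-131981967, - strand), the outer-membrane receptor that marks mitochondria for mitophagy in hypoxia, was at 46154, 46840.2 and 42306 in HIF-1α and 8058, 8205 and 8445 in HIF-2α/1α. WT libraries were at 7544, 7975 and 7779, so the chimera's libraries lay just above the WT range and the HIF-1α libraries far above both. The log2 change was -2.45 ± 0.054, adjusted p 2.42e-33. FAM162A, a mitochondrial protein linked to cell death in hypoxia, went the same way, from 5495, 5947 and 5072 in HIF-1α to 932, 1099 and 1029 in HIF-2α/1α (-2.43 ± 0.077, adjusted p 3.04e-27), with WT at 1041, 983 and 1079. BNIP3P1, a processed pseudogene of BNIP3, fell by a similar amount (-2.48 ± 0.18, adjusted p 2.65e-14), but it can receive reads of its parent gene and is uncertain.

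The promoters of CA9 and BNIP3 are shown because these genes lost most or all of their rise above WT, beside PGK1, which lost part of it, and PLOD2, which lost none (values of both follow). Each run covers 250 bases before to 50 bases after the RefSeq start of transcription on GRCh38.p14, on the gene's own strand. Capitals mark the core of the hypoxia response element, searched as ACGTG and as GCGTG on both strands. The E-box, a site of other bHLH factors, holds the first form on both strands, so that these matches overlap.
CA9, chr9:35673678-35673977, + strand: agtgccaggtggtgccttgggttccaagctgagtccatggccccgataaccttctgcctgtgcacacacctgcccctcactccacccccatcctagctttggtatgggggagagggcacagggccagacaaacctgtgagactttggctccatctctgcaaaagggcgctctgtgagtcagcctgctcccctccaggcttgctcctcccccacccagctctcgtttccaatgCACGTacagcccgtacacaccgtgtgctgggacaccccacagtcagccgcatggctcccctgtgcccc
BNIP3, chr10:131981874-131982173, - strand: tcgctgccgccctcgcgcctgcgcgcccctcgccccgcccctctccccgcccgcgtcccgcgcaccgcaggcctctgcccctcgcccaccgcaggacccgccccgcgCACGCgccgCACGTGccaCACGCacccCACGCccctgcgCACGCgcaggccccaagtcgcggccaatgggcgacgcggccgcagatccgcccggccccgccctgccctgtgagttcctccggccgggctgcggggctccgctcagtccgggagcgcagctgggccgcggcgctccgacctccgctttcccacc
PGK1, chrX:78103998-78104297, + strand: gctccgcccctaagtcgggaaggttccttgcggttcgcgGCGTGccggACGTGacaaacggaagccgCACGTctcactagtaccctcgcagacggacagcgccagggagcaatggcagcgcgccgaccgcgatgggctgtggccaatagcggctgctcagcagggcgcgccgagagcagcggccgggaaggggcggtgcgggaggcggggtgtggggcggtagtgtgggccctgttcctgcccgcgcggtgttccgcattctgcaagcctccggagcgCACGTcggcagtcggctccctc
PLOD2, chr3:146161135-146161434, - strand: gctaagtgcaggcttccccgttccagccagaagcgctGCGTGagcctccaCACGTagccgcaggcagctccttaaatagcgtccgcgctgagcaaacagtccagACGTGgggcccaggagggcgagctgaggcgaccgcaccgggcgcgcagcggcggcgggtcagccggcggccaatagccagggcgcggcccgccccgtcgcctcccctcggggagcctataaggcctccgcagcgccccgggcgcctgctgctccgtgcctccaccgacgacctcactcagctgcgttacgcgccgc
The retained PLOD2 and the partly retained PGK1 both hold the core, as do CA9 and BNIP3. ACGTG was present in 24 of the 92 lower genes with a promoter in the table (26.1%), in 25.2% of 13537 tested genes and in 21.6% of all 27305 promoters. GCGTG was present in 35 of the 92 (38.0%), in 47.0% of tested genes and in 36.3% of all promoters. The E-box (CACGTG) was present in 14 of the 92 (15.2%), in 9.40% of tested genes and in 7.43% of all promoters. These matches are letters in a window of 300 bases and say nothing of binding there or elsewhere.

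Other genes with large changes lay outside the hypoxia lists. ARL10, an ARF-like small GTPase, was at 371, 443 and 477 in HIF-1α, 20.1, 59.5 and 44.4 in HIF-2α/1α and 19.3, 17.8 and 18.0 in WT (-3.34 ± 0.23, adjusted p 8.96e-15). HHIP, a decoy receptor of Hedgehog ligands, went from 256, 215 and 294 to 60.3, 44 and 58.8 (-2.24 ± 0.25, adjusted p 6.36e-09), and its antisense gene shares the unstranded counts. GPR146, a G protein-coupled receptor that shares its position with C7orf50 on the other strand, went from 119.6, 122 and 125 to 23.7, 21.6 and 33.3, where its range overlapped that of WT (27.0, 9.70 and 9.02). In each of these genes the groups were apart by more than their whole range. CNTN1, a neural adhesion protein, went from 92.6, 104 and 129 to 22.5, 20.7 and 35.5, POU3F3, a neural POU-domain factor, from 223, 247 and 207 to 46.1, 62.9 and 52.1, and SARDH, the mitochondrial sarcosine dehydrogenase, from 769.7, 690.2 and 883 to 195, 187 and 209. All 3 remained above WT in HIF-2α/1α in every library: CNTN1 was at 6.82 ± 7.59 (SD, n = 3), POU3F3 at 19.9 ± 7.19 and SARDH at 25.3 ± 5.27 in WT. The plot by library places 12 genes of the comparison side by side in all 5 lines.

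**Figure D2:**
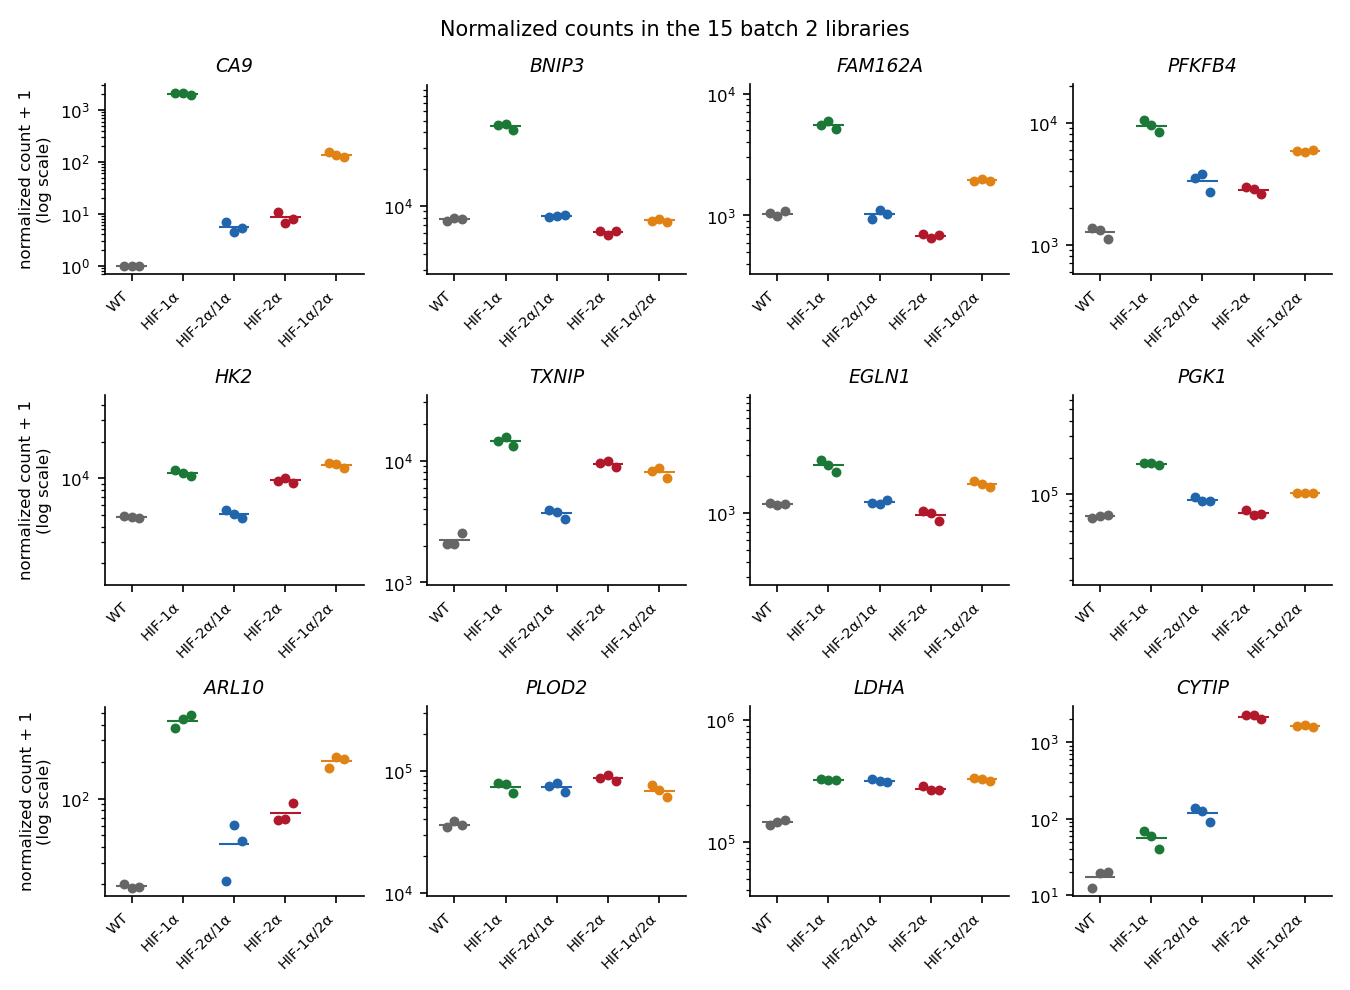
Normalized count + 1 (log scale) of 12 genes in each of the 15 libraries of the batch, with points for libraries and a line for the mean of each line's 3. CA9, BNIP3, FAM162A, PFKFB4, HK2, TXNIP, EGLN1, PGK1 and ARL10 are lower in HIF-2α/1α than in HIF-1α in every library, PLOD2 and LDHA overlap between both lines and lie above WT in both, and CYTIP is highest in HIF-2α and HIF-1α/2α.

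Glycolytic genes did not move together. Of 17 glycolytic enzymes tested, HK2 was called lower, 7 (HK2, PGK1, PGAM1, ENO2, GPI, HK1 and ENO1) were lower at an adjusted p of at most 0.01 whatever the fold, and none was higher. Across all genes 1.56% were lower and 0.606% higher by adjusted p alone. HK2, the hexokinase that traps glucose in the cell, was at 11671, 10989 and 10412 in HIF-1α, 5472, 5115 and 4756 in HIF-2α/1α and 4938, 4832 and 4719 in WT (-1.11 ± 0.058, adjusted p 9.17e-19), so the chimera's range overlapped that of WT. PGK1, the phosphoglycerate kinase used as a standard hypoxia target, was at 180900, 180103 and 174522 in HIF-1α, at 95273, 88964 and 88286 in HIF-2α/1α and at 64389, 66863 and 68192 in WT. Its log2 change of -0.97 ± 0.045 (adjusted p 6.29e-21) was just short of the 2-fold threshold, and the chimera kept part of the rise above WT. PGAM1 (log2 change -0.61, adjusted p 3.50e-13), ENO2 (-0.57, 7.22e-11), GPI (-0.48, 1.01e-09) and ENO1 (-0.36, 4.29e-07) were lower by smaller amounts.

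Other enzymes of the same pathway lay near the HIF-1α level in the chimera. LDHA, which turns pyruvate into lactate, was at 328628, 322417 and 320366 in HIF-1α and 328889, 315031 and 312489 in HIF-2α/1α against 137576, 145850 and 151205 in WT (log2 change -0.02 ± 0.043, adjusted p 0.882). TPI1 changed by -0.06 ± 0.045, PFKL by -0.06 ± 0.053, ALDOA by 0.14 ± 0.067 and GAPDH by -0.08 ± 0.043, with adjusted p between 0.325 and 0.695. All 5 stood above WT in both lines in every library. ALDOC, another aldolase, was at 3293 ± 459 (SD, n = 3) in HIF-1α and 2765 ± 608 in HIF-2α/1α against 258 ± 56.4 in WT (-0.25 ± 0.12, adjusted p 0.322). These genes, and the uncalled enzymes above, were picked after their values were seen.

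Among the kinases that steer glycolysis, PFKFB4, which sets the level of fructose-2,6-bisphosphate, went from 10489.7, 9557 and 8352 to 3484, 3790.5 and 2694 with WT at 1361, 1312 and 1115 (-1.51 ± 0.084, adjusted p 5.76e-18). Its relative PFKFB3 changed by -0.98 ± 0.054 and PDK1, which shuts pyruvate out of the mitochondrion, by -0.90 ± 0.077; both passed the adjusted p (3.17e-18 and 6.03e-12) and not the fold. Of the 8 PFKFB and PDK genes 1 was called lower and 3 were lower by adjusted p alone. TXNIP, an arrestin-like protein that restrains glucose uptake, was at 14518, 15729.6 and 13205 in HIF-1α, 3961, 3809 and 3286 in HIF-2α/1α and 2056, 2083 and 2553 in WT (-1.97 ± 0.076, adjusted p 7.94e-24). ARRDC4, its close relative, went from 1564, 1465 and 1507 to 562, 663 and 652 (-1.27 ± 0.097, adjusted p 2.02e-13). Both are thus lower with the HIF-2α structured domain, TXNIP still above WT in every library and ARRDC4 within the WT range (527, 675 and 498). The glucose transporter SLC2A12 was the only 1 of 6 glucose and lactate transporters called lower, from 34.7, 40.7 and 30.3 to 5.91, 7.76 and 4.44, but its call was lost when any of the 6 libraries was left out (adjusted p 0.0142 to 0.0445).

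Glycogen genes were lower in part. PPP1R3C, which brings protein phosphatase 1 to glycogen, went from 1376, 1348 and 1108 in HIF-1α to 481, 508 and 510.4 in HIF-2α/1α, with WT at 204, 276 and 179 (-1.35 ± 0.10, adjusted p 1.33e-13). It was the 1 called gene of 13 in the list; 5 were lower by adjusted p alone, namely PPP1R3C, the branching enzyme GBE1 (-0.92), the glycogen synthase GYS1 (-0.68), PPP1R3B (-0.61) and the phosphoglucomutase PGM1 (-0.50). GBE1 was at 13604, 12848 and 12295 in HIF-1α and 6691, 6974 and 6830.4 in HIF-2α/1α against 4844, 5166 and 5032 in WT. Of 9 genes of mitochondria and mitophagy in hypoxia, BNIP3 and FAM162A were called lower. BNIP3L, the paralog of BNIP3, changed by -0.82 ± 0.059 (adjusted p 3.91e-14) and MXI1, a MYC antagonist, by -0.69 ± 0.088 (adjusted p 2.08e-07), neither reaching 2-fold.

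Among the subunits and sensors of the pathway, EGLN1, the prolyl hydroxylase PHD2 that marks HIF-α for degradation and is itself a HIF target, was at 2752, 2481 and 2183 in HIF-1α, 1208, 1195 and 1292 in HIF-2α/1α and 1203, 1167 and 1199 in WT (-1.01 ± 0.083, adjusted p 1.97e-12). The chimera's libraries lay at the WT level, and the fold was so close to 2 that leaving out HIF-1α library 1, HIF-2α/1α library 1 or HIF-2α/1α library 2 took it below the threshold (log2 change -0.92 to -0.99). ARNT, the gene of HIF-1β, was at 3707, 3536 and 3286 in HIF-1α and at 3604, 3192 and 3293 in HIF-2α/1α (-0.06 ± 0.065, adjusted p 0.717). Of 15 genes listed as HIF-1α-linked targets 5 were called lower (CA9, BNIP3, PTPRN, PFKFB4 and ANKRD37), 9 were lower by adjusted p alone, and their median log2 change was -0.57. Of 15 HIF-2α-linked targets none was called, 4 were lower and 2 were higher by adjusted p alone. CCND1, the G1 cyclin and a member of the latter, changed by 0.24 ± 0.046 (adjusted p 4.26e-04).

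Several genes that were higher in HIF-1α than in WT lay near the HIF-1α level in HIF-2α/1α. PLOD2, the lysyl hydroxylase that hardens collagen cross-links, was at 79315, 77632 and 65534 in HIF-1α and 75135, 79170.3 and 67004 in HIF-2α/1α against 34265, 38482 and 35637 in WT (-0.01 ± 0.065, adjusted p 0.990). P4HA1, a collagen prolyl hydroxylase, was at 24341, 23536 and 22248 in HIF-1α and 24054, 23857 and 21865 in HIF-2α/1α against 7589, 8126 and 8739 in WT (-0.01 ± 0.060). GPRC5C, an orphan receptor, was at 707, 585 and 439 in HIF-1α and 664, 696 and 407 in HIF-2α/1α against 4.82, 6.47 and 13.0 in WT (0.03 ± 0.18). In each the ranges of both lines overlapped and lay above all 3 WT libraries. PPFIA4, a liprin, was at 3695 ± 342 (SD, n = 3) in HIF-1α and 2807 ± 464 in HIF-2α/1α against 107 ± 31.0 in WT (-0.39 ± 0.10, adjusted p 0.0166). No gene was called among 11 collagen hydroxylases and oxidases, 22 angiogenic and secreted hypoxia factors, 26 extracellular matrix genes, 23 sterol and fatty acid genes, 24 proliferation genes or 10 mitochondrially encoded genes. By adjusted p alone 3, 5, 4, 2, 0 and 0 of these were lower and 1, 0, 3, 0, 0 and 0 higher. The lists of epithelial-mesenchymal transition, histone demethylase, TGF-β, axon guidance, EGF receptor, cytokine, interferon, lipid droplet, cell cycle and immediate early genes held no called gene either. They held 15, 14, 22, 32, 11, 18, 24, 18, 12 and 12 tested genes. By adjusted p alone 2, 2, 1, 3, 1, 1, 2, 3, 1 and 0 of them were lower. In the same order 0, 0, 2, 2, 0, 0, 1, 1, 2 and 0 were higher. Only 0.467% of all genes were called lower and 0.0766% higher, so no call in a short list is near that share. VLDLR, a lipoprotein receptor, was lower below the fold threshold (-0.69 ± 0.067, adjusted p 2.98e-10), and ERO1A, the oxidase of the endoplasmic reticulum, likewise (-0.64 ± 0.061, adjusted p 1.86e-10). The strip plot of lists shows most medians slightly below 0 and few members past 2-fold.

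**Figure D3:**
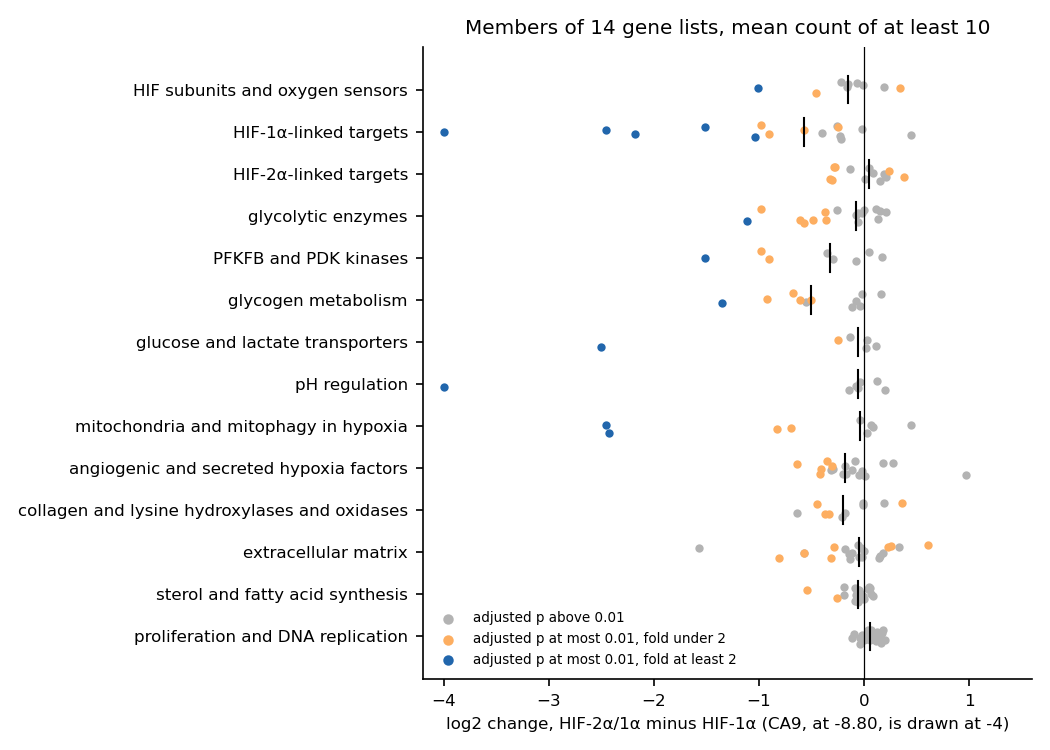
Log2 change between HIF-2α/1α and HIF-1α for members of 14 gene lists whose mean normalized count reached 10, 1 point a gene, with a black line at each list's median; CA9, at -8.80, is drawn at -4. Called genes are blue, genes past the adjusted p alone orange and others grey; the called genes are few in each list, and the HIF-1α-linked targets have the lowest median of these lists (-0.57).

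The genes called lower also held members outside the fixed lists, which were picked after their values were seen. ANKZF1, a factor of ribosome quality control, went from 7055, 6945 and 6562 in HIF-1α to 3210.1, 3487 and 2909 in HIF-2α/1α (-1.10 ± 0.068, adjusted p 2.36e-16), near the 2849 ± 85.7 (SD, n = 3) of WT. RAB20, an endosomal small GTPase, went from 1539, 1511 and 1564 to 643, 534 and 628 (-1.36 ± 0.11, adjusted p 2.43e-12) with WT at 495 ± 69.4. MUC1, a membrane mucin, went from 492, 516 and 388 to 108, 119 and 168 (-1.82 ± 0.17, adjusted p 7.71e-11) with WT at 100.1 ± 11.3. In all 3 the chimera's mean lay closer to WT than to HIF-1α. SLC38A5, a transporter of glutamine and other neutral amino acids, went from 3665, 3579 and 3819 to 1081, 1027 and 1052 (-1.81 ± 0.081, adjusted p 2.64e-21) and remained above the 179 ± 31.8 of WT.

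Of the 22 genes called higher, 6 were small structural RNAs (RNU4-2, RNU4-1, RN7SKP203, RN7SKP80, SNORD3A and RN7SL1) and 5 were replication-dependent histone genes (HIST1H2BF, HIST1H1B, HIST1H2AE, HIST1H4E and HIST2H2AC). RN7SL1, the RNA of the signal recognition particle, was at 1452, 2313 and 25371 in the HIF-2α/1α libraries and 3852, 2650.5 and 1505 in the HIF-1α libraries, and without HIF-2α/1α library 3 its log2 change was -0.49 in place of 1.86. SNORD3A, the U3 snoRNA, was at 89.9, 50.9 and 2036 in HIF-2α/1α and 85.8, 61.0 and 75.8 in HIF-1α, with a log2 change of -0.09 without that library. The rise of RN7SL1 and SNORD3A thus lay in 1 library. HIST2H2AC kept a log2 change of 0.67 without that library, in place of 1.86, and was then not called (adjusted p 0.507). Histone genes took 0.0043% and 0.00433% of counts in HIF-2α/1α libraries 1 and 2, against 0.0032% to 0.00388% in the HIF-1α libraries. For 15 of the 22 higher genes the groups did not overlap, which held for 8.89% of all genes in that direction. The choice of the 22 on the same libraries favours this. Another 8 (CEACAM6, HBB, CHGA, MYCN, CPLX2, AKR1C2, PHGDH and AGR2) had few reads. The first 5 of them had 0 reads in the HIF-1α libraries and together 45 to 102 in each HIF-2α/1α library, but also 41 to 81 in each HIF-2α library, 65 and 54 in HIF-1α/2α libraries 2 and 3, and 0 in HIF-1α/2α library 1, so replicates of 1 line were split as the lines were. No fold is given for them. AKR1C2 had 8, 2 and 2 reads in HIF-1α and 22, 53 and 23 in HIF-2α/1α, but 0, 25 and 37 in HIF-1α/2α, and PHGDH and AGR2 were also lowest in library 1 of that line. CHGA, a secretory granule protein, was called higher and PTPRN, a granule membrane protein, lower among 17 secretory granule genes. The mean of PTPRN was 195 in HIF-1α, 43.1 in HIF-2α/1α and 1.88 in WT, so the chimera kept part of its rise above WT.

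The other 3 higher genes showed neither pattern. CYTIP, which binds cytohesins in leukocytes, was at 68.5, 58.1 and 39.8 in HIF-1α, 136, 126 and 91.0 in HIF-2α/1α and 11.6, 18.6 and 19.0 in WT (1.09 ± 0.17, adjusted p 1.02e-05). HIF-2α libraries were at 2271, 2256 and 2009 and HIF-1α/2α libraries at 1631, 1673 and 1575, so the increase on the HIF-1α IDR was small beside the level with the HIF-2α IDR. OSR2, a zinc finger factor of kidney and limb development, was at 55.9, 47.4 and 38.9 in HIF-1α, 125, 104 and 104 in HIF-2α/1α and 85.7, 97.0 and 104 in WT (1.23 ± 0.25, adjusted p 8.80e-04), so that HIF-1α lay below the WT range. AC005865.1, a pseudogene that overlaps genes on both strands and is uncertain, was at 71.4, 55.2 and 47.4 in HIF-1α and 138, 126 and 97.6 in HIF-2α/1α. Each of these 3 calls was lost without some library: OSR2 reached an adjusted p of 0.012 without HIF-1α library 3, and CYTIP and AC005865.1 came under 2-fold without that library or HIF-2α/1α library 1 (log2 change 0.90 to 0.98).

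To describe the exchange on genes chosen in other libraries, 4 lists were taken from the first batch by the same test. Those libraries are not known to come from separately derived lines. Of 766 genes raised by HIF-1α over WT there, 111 (14.5%) were lower in HIF-2α/1α than in HIF-1α, against 0.467% of all genes, and none was higher, against 0.0766%. Their median log2 change was -0.37 (-0.33, -0.32 and -0.49 for the 3 HIF-2α/1α libraries against the HIF-1α mean), and 619 (80.8%) were below 0, against 50.7% of all genes. The list remained above WT in both lines: in the second batch the median against WT was 1.97 in HIF-1α and 1.57 in HIF-2α/1α, and 620 and 477 of the 766 were called above WT. These last contrasts share libraries with the exchange and are given side by side. For the 121 genes lowered by HIF-1α in the first batch (0.517%) the median of the exchange was 0.0017 and none was called.

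The first batch also compared HIF-2α with HIF-1α (0.935% of genes higher, 1.46% lower in HIF-2α). The 342 genes higher with HIF-1α had a median log2 change of -0.33 between HIF-2α/1α and HIF-1α, with 35 called lower (10.2%) and none higher. Against WT their median was 0.88 in HIF-1α, 0.41 in HIF-2α/1α, -0.83 in HIF-2α and -0.93 in HIF-1α/2α. The 219 genes higher with HIF-2α had a median of 0.049, with 2 called higher (CYTIP and AC005865.1) and 5 lower. Against WT these were at 0.42 in HIF-1α, 0.48 in HIF-2α/1α, 2.23 in HIF-2α and 2.12 in HIF-1α/2α. On both lists the lines with the same IDR had medians closer to each other than lines with the same structured domain. IGFBP3 and HSD3B7 belong to the genes that HIF-2α raises: IGFBP3, which binds insulin-like growth factors, was at 122718 ± 1502 (SD, n = 3) in HIF-1α, 100980 ± 8561 in HIF-2α/1α, 780209 ± 53229.5 in HIF-2α and 480541 ± 15484 in HIF-1α/2α. HSD3B7, a bile acid enzyme, was at 557 ± 29.8, 507 ± 41.8, 6651 ± 472 and 4298 ± 71.8 in the same order. For neither did the HIF-2α structured domain on the HIF-1α IDR come near the level of full HIF-2α. The box plot of these lists shows the shift of the HIF-1α-raised genes beside those raised by HIF-2α, which lie near 0.

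**Figure D4:**
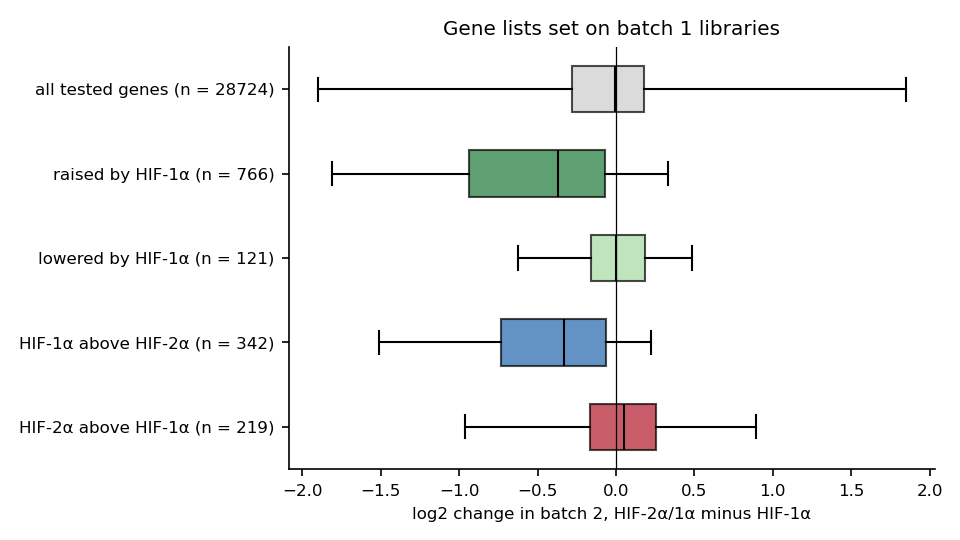
Log2 change between HIF-2α/1α and HIF-1α in the second batch for all 28724 tested genes and for 4 lists taken from the first batch (766, 121, 342 and 219 genes). Boxes span the quartiles with the median as a line and whiskers run from the 5th to the 95th percentile; the medians of the genes raised by HIF-1α (-0.37) and of those higher with HIF-1α than HIF-2α (-0.33) lie below 0, the others at 0.0017 and 0.049.

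The same exchange was made on the HIF-2α IDR by HIF-2α against HIF-1α/2α, which share no library with the comparison above. There 303 genes were lower (1.05%) and 298 higher (1.04%) with the HIF-2α structured domain. Of the 134 genes lower on the HIF-1α IDR, 58 were also lower on the HIF-2α IDR, 6 were higher and 70 were not called. A log2 change below 0 was seen for 106 of the 134, against 49.2% of all genes. None of the 22 higher genes was called on the HIF-2α IDR. Across the 18156 genes whose mean normalized count over the 12 transgene libraries reached 10, the 2 exchanges correlated weakly (Pearson r = 0.197, Spearman rho = 0.21), where the points are genes and not replicates.

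Whether a gene responded differently on the 2 IDRs was tested as an interaction in the same fit, in which 0.31% of genes were positive and 0.867% negative. Of the 134 genes 41 were called, 30 of them more negative on the HIF-1α IDR and 11 on the HIF-2α IDR; the choice of the 134 by one side of the contrast favours the first. BNIP3 changed by -2.45 on the HIF-1α IDR and -0.33 on the HIF-2α IDR (interaction -2.13 ± 0.074, adjusted p 1.84e-25), where its count was 6176, 5811 and 6183 in HIF-2α and 7581, 7775 and 7446 in HIF-1α/2α. No library of the other transgene lines came near the level of HIF-1α with its own IDR. TXNIP changed by -1.97 and 0.24 (interaction -2.21 ± 0.11, adjusted p 3.07e-20), with 9492, 9988 and 8799.5 in HIF-2α and 8160.2, 8638 and 7205 in HIF-1α/2α, all above WT. CA9 changed by -8.80 and -4.12 (interaction -4.67 ± 0.50, adjusted p 4.58e-09). Its counts were near the floor in both lines with the HIF-2α structured domain (means 4.60 in HIF-2α/1α and 7.58 in HIF-2α). The size of both falls, and of their difference, is therefore uncertain. MUC1 changed by -1.82 and -0.09 (interaction adjusted p 5.34e-07).

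PTGIS, prostacyclin synthase, changed in opposite directions: it was at 190, 167 and 191 in HIF-1α and 35.5, 46.6 and 71.0 in HIF-2α/1α, and at 124, 109.7 and 129 in HIF-2α and 5.80, 2.38 and 10.8 in HIF-1α/2α (interaction -6.05 ± 0.45, adjusted p 1.25e-13). GRIN2A, a subunit of NMDA receptors, was at 64.6, 56.1 and 54.0 in HIF-1α, 22.5, 10.3 and 11.1 in HIF-2α/1α, 319, 418 and 377 in HIF-2α and 64.7, 34.5 and 61.8 in HIF-1α/2α (interaction -4.79 ± 0.39, adjusted p 1.18e-12). KISS1R, the kisspeptin receptor, did likewise (log2 changes -1.52 and 2.05, interaction adjusted p 6.22e-10). The HIF-2α structured domain thus went with less of these RNAs on 1 IDR and more on the other. SERPING1, VWA1 and KRT81 were the other 3 of the 6 genes called in opposite directions.

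In other genes the exchange went the same way on both IDRs and was larger on that of HIF-2α. NOG, a secreted antagonist of BMPs, was at 484, 420.1 and 496 in HIF-1α, 173, 166 and 237 in HIF-2α/1α, 1347, 1312 and 1457 in HIF-2α and 7674, 7605 and 10043 in HIF-1α/2α (log2 changes -1.29 and -2.62, interaction 1.33 ± 0.15, adjusted p 6.46e-09). CTHRC1, a secreted collagen-repeat protein, changed by -1.04 and -2.15 (interaction adjusted p 1.91e-08), NKX2-5, a cardiac homeodomain factor, by -1.27 and -4.30 (adjusted p 3.73e-05), and TIE1, an endothelial receptor kinase, by -1.49 and -3.27 (adjusted p 5.15e-04). The highest level of each was in HIF-1α/2α. NKX2-5 lost its call on the HIF-1α IDR without any of 5 libraries (adjusted p 0.0164 to 0.0764). FAM162A (interaction -0.92 ± 0.11, adjusted p 1.97e-08), HK2 (-0.69 ± 0.082, 3.39e-08), PFKFB4 (-0.44 ± 0.12, 0.00942) and SLC38A5 (0.56 ± 0.11, 3.05e-04) passed the adjusted p and not the 2-fold threshold, and were among the 93 with no called difference between the IDRs. The plot of both exchanges shows CA9 and BNIP3 off the line of equal change.

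**Figure D5:**
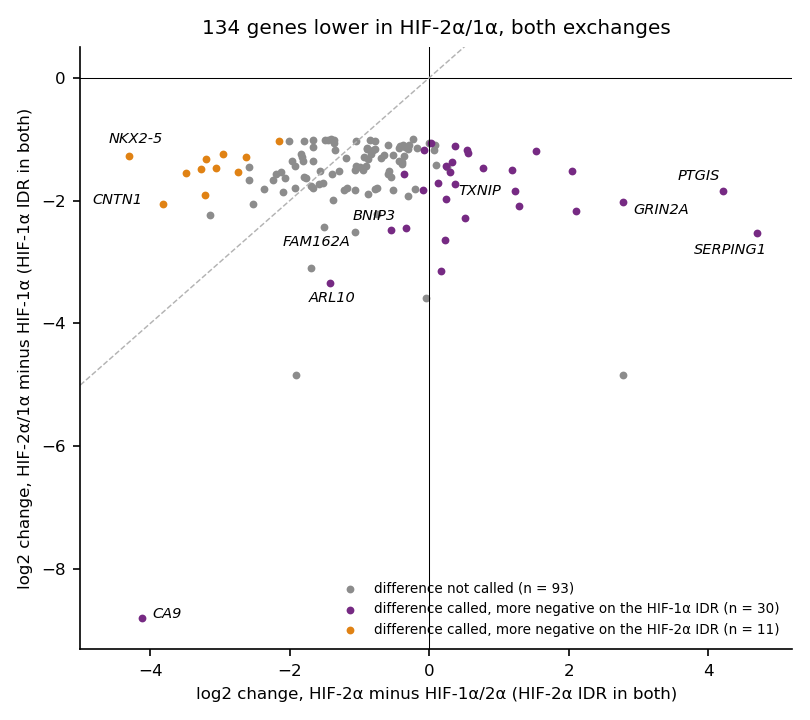
Log2 change on the HIF-1α IDR (y axis, HIF-2α/1α minus HIF-1α) against that on the HIF-2α IDR (x axis, HIF-2α minus HIF-1α/2α) for the 134 lower genes; the dashed line marks equal change. Grey, purple and orange points are the 93 genes with no called interaction, the 30 more negative on the HIF-1α IDR and the 11 more negative on the HIF-2α IDR, and the y values are below -1 by the choice of genes.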

How the data were processed

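RNA of the second batch had been extracted with TRIzol, selected for poly(A) and sequenced as 150 bp paired reads, with 3 biological replicates of each line. The authors aligned reads to hg38 with STAR (version 2.7 in the submitters' processing notes), discarded reads of more than 1 position and counted the rest on GENCODE v32 genes with HTSeq (version 0.11.1 in the notes), in union mode and without regard to strand. They deposited raw counts for 60609 genes per library, and tested expression with DESeq2. Rows that name no gene were left out. Antisense and same-strand neighbours and near-identical copies cannot be told apart where they share reads, and levels were not compared between genes.

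The 15 libraries of the batch were fitted together with edgeR 4.0.16 (quasi-likelihood test, TMM normalization, R 4.3.3), for the 28724 genes whose mean normalized count reached 0.5. Normalization factors of the 6 libraries lay between 0.991 and 1.03. SE is the log2 change divided by the root of the F statistic. It is not a direct estimate of the error and can be too small where a line has few reads, as for CA9. Simulated counts (27882 genes) had known changes in genes with a mean count of at least 50. Calls were made for 94% of genes changed 2.5-fold, 100% changed 4-fold and 0% changed 1.5-fold, with 1 false call. The shares called thus do not cover genes of fewer reads. No simulated library was made to stand apart, so the false call does not cover the library patterns described above. The 27 libraries of the first batch were fitted separately, only to draw gene lists. Depth in the batch ran from 76366799 to 109642159 counts, and a floor of 3 reads is 0.0297 to 0.0393 CPM in the 6 libraries and covers counting error only. P-values measure the spread between libraries of 1 line per construct.

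Genes were named by rule: the largest called changes in each direction and a mean normalized count from 50 up, the called genes with the highest counts, genes the study turns on, the leading members of each list and the largest interactions; others are said to be picked after their values were seen. Some genes that met the rule are not reported here. The comparison, its genes and the lists were chosen with earlier results of these data known. Promoters are RefSeq sequences on GRCh38.p14, matched by symbol. Alternatives were size factors, count filters, fold threshold, replicate block, fewer samples in the fit, leaving out each library, and DESeq2 1.42.0.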

Additional observations from a re-analysis of the deposited data

Results flagged for a closer look

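For 28 of the 107 named genes the exchange of the structured domain gave a different change on the HIF-1α IDR than on the HIF-2α IDR. The call was by the interaction term of the edgeR fit at an adjusted p of at most 0.01 and 2-fold. Over all genes 0.31% were positive and 0.867% negative. Some of the named genes were chosen for a large interaction or a large change, so their count follows in part from that choice. A negative log2 difference means a lower log2 change on the HIF-1α IDR than on the HIF-2α IDR. Such a gene could fall on both IDRs, as CA9 did (-8.80 and -4.12). Others fell on the HIF-1α IDR and rose on the HIF-2α IDR, as PTPRN (-2.17 and 2.11), MXI1, ALDOC, PPFIA4 and ENO2 did. The log2 difference between both changes was negative for PTGIS (-6.05), RNASE1 (-5.07), GRIN2A (-4.79), CA9 (-4.67), PTPRN (-4.28) and KISS1R (-3.57). Smaller negative differences were those of TXNIP (-2.21), BNIP3 (-2.13), BNIP3P1 (-1.93), ARL10 (-1.91), MUC1 (-1.74), MXI1 (-1.63), ALDOC (-1.44), PPFIA4 (-1.20) and ENO2 (-1.12). It was positive for CTHRC1 (1.11), NOG (1.33), CNTN1 (1.76), TIE1 (1.78), NKX2-5 (3.04), COL5A1 (3.57), GLUL (4.14) and SH2D1B (4.21). COL5A1, GLUL and SH2D1B were not called on the HIF-1α IDR and were higher in HIF-1α/2α than in HIF-2α. OSR2 (1.53) rose on the HIF-1α IDR. HIST2H2AC (2.65), RN7SL1 (2.98) and SNORD3A (3.49) carry the counts of HIF-2α/1α library 3. HBB, which had 0 reads in HIF-1α, is given no fold. HIF1A (2.93) carries transgene reads, which HIF-2α lacks on the HIF-2α IDR.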

How the results depend on the processing

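The count of genes lower in HIF-2α/1α was 117 to 160 under other size factors, filters, fits and DESeq2 against 134, and DESeq2 shared 128 of its 135 with them. The count of higher genes was less stable than that: 38 with no filter on low counts, 9 with a mean of at least 10, 9 with DESeq2 and 34 with the replicate block, against 22; a stricter filter tests fewer genes, and otherwise the cause was not tested. With no fold threshold there were 174 higher and 447 lower genes, 1956 and 1965 for HIF-2α against HIF-1α/2α, and 677 positive and 865 negative interactions. Fitted on the compared libraries alone, the median of the genes higher with HIF-1α than HIF-2α was -0.4276. Leaving out each library in turn gave 10 to 24 higher and 110 to 130 lower genes, 264 to 291 and 256 to 295 on the HIF-2α IDR, and 73 to 89 positive and 213 to 260 negative interactions; without HIF-1α library 1, 2 or 3 the higher genes were 12, 10 and 11, and without HIF-2α/1α library 3 they were 10. The medians then ran from -0.4119 to -0.3343 (raised by HIF-1α), -0.3734 to -0.2954 (higher with HIF-1α than HIF-2α) and 0.01262 to 0.06362 (higher with HIF-2α). Deviations of same-numbered libraries of both lines correlated at 0.00938, 0.0713 and 0.0954, and those of differently numbered libraries at -0.101 to 0.0349. Each HIF-2α/1α library correlated most with the HIF-1α library of its own number. Whether replicate numbers mark shared handling was not tested. In the fit with a replicate block 155 genes were lower, 131 of them among the 134. Of 1282 values for 107 named genes, 1199 kept their direction and side of the threshold; 25 of 39 called genes stayed called under all 12 settings. The direction of PLXNA2 (-0.009059) and STC2 (-0.0007143), both near 0, turned with no filter. Leaving out libraries turned the sign of CCN1 (-0.2274 to 0.05892), ERRFI1 (-0.07227 to 0.08934), GLUL (-0.2779 to 0.3227), GPRC5C (-0.1315 to 0.2416), JUN (-0.01324 to 0.1498), MT-CO1 (-0.06637 to 0.1495), MT-RNR2 (-0.07319 to 0.1505), NDRG1 (-0.1291 to 0.0957), P4HA1 (-0.04159 to 0.03965), PLOD2 (-0.08921 to 0.06141), PLXNA2 (-0.02751 to 0.0505) and STC2 (-0.0308 to 0.06038), none of them called. Of called genes it turned RN7SL1 (-0.4927 to 2.372) and SNORD3A (-0.09032 to 3.84), both without HIF-2α/1α library 3.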
